A study of Arabidopsis thaliana with 12 samples.

Results

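The genes described here are CHLM (AT4G25080), CHLP (AT1G74470) and SIRB (AT1G50170), which encode enzymes of the chlorophyll and siroheme branches of tetrapyrrole synthesis in Arabidopsis thaliana. They were chosen by locus, and each had a probe of its own: probe 2091 for CHLM, probe 2360 for CHLP and probe 353 for SIRB, among the 3439 probes of the array and the 692 probes that name a single gene. Total RNA came from wild-type plants of ecotype C24. Per the labels, the plants of all 12 array columns grew under PSI light, meaning light specific for photosystem I; 6 columns had no further treatment, and the plants of the other 6 were also given DCMU. DCMU is a herbicide that stops photosystem II from passing its electrons on. The comparison asks which transcripts differ when photosynthetic electron transport is inhibited in PSI light. Dose, duration, plant age and tissue are not given in the labels, so no tissue could be checked against markers.

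Tetrapyrroles are made in plastids from 5-aminolevulinic acid, which is built from glutamate. At uroporphyrinogen III the pathway divides. Methylation and insertion of iron lead to siroheme, the cofactor of plastid nitrite and sulfite reductases, and SIRB is the sirohydrochlorin ferrochelatase that inserts the iron. The other route leads to protoporphyrin IX, from which heme and chlorophyll are made. CHLM is the methyltransferase that acts on magnesium protoporphyrin IX, and CHLP is the geranylgeranyl reductase that makes the phytyl chain of chlorophyll, which tocopherols also carry. Chlorophyll synthesis is known to respond to light and to signals from the plastid.

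The 3 genes did not share a response. SIRB fell 2.71-fold with DCMU (95% confidence interval 2.38-fold to 3.09-fold lower, n = 3 hybridisations per group). CHLM was 1.26-fold lower after quantile normalisation and did not pass the test. Its deposited intensities were lower in every DCMU column than in any PSI light column, as were those of 35.7% of all probes. CHLP differed by 1.09-fold, within the spread of the hybridisations. The array was measured in bulk RNA, so fewer cells that express a gene and less of its RNA per cell cannot be told apart.

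The deposited values are linear intensities relative to the brightest probe of each column. On this scale DCMU columns had lower medians, 0.386 to 0.504 against 0.542 to 0.584 for PSI light columns. A column held 108 to 141 probes at 0. A lower median is relative to the brightest probe, so it does not show that an array was dimmer. Below, no scaling means no scaling beyond this one. Adjacent columns of a group (1 with 2, 3 with 4, 5 with 6) were nearly the same, with Spearman coefficients of at least 0.976, while no other pair of the group exceeded 0.960. Each such pair was therefore averaged and counted as 1 hybridisation, which the labels do not state, and n = 3 per group below. No label says that the samples came from separate plants or cultures, so p-values measure the spread between these hybridisations, which may be technical. After quantile normalisation, limma's model called 43.1% of all probes at an adjusted p under 0.05, with 25.0% lower and 18.1% higher with DCMU. Of the probes called, 57.9% were lower, against 73.4% with no scaling, 69.1% with equal totals and 47.9% after a correction for probe position. The median log2 fold change of all probes was -0.06 after quantile normalisation and -0.32 with no scaling. Of the 3 genes 1 was called, a share close to that of all probes.

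In the siroheme branch, the deposited intensity of SIRB ran from 0.499 to 0.691 in PSI light (median 0.576, 6 columns). With DCMU it ran from 0.132 to 0.221 (median 0.202, 6 columns). The groups did not overlap, and the highest DCMU column lay below the lowest PSI light column, as was so for 35.7% of all probes. The mean with DCMU was 31.8% of the mean in PSI light. DCMU columns 5 and 6, at 0.132 and 0.147, were the lowest for SIRB and also had the lowest column medians of the series, at 0.386 and 0.392.

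**Figure D1:**
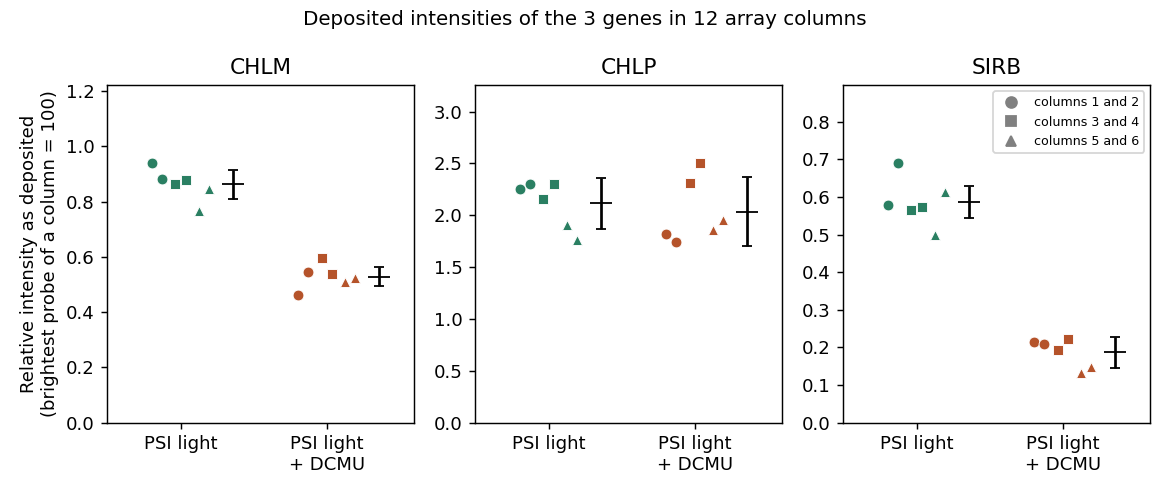
Deposited relative intensity (linear axis from 0) of CHLM, CHLP and SIRB in each of 12 array columns, with green for PSI light and orange for PSI light with DCMU; point shapes mark the column pairs, and black bars give the mean and SD of 3 hybridisation means. SIRB and CHLM are lower in all 6 DCMU columns than in any PSI light column, as are 35.7% of all probes, while CHLP overlaps.

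On the log2 scale after quantile normalisation, the 3 hybridisations of SIRB stood at -0.86, -1.00 and -0.95 in PSI light and at -2.34, -2.30 and -2.50 with DCMU. The group means were -0.94 ± 0.07 and -2.38 ± 0.10 (SD, n = 3). The difference between groups was many times the spread within them, and duplicate columns differed by at most 0.29. SIRB fell by 1.44 on the log2 scale (SE 0.07, adjusted p = 0.000666, limma over all 3439 probes). SIRB was lower in all 6 DCMU columns than in any PSI light column, as were 25.0% of all probes. No column of SIRB was at the floor of -3.19 that was set for low intensities. With an offset added in place of that floor, the log2 fold change was -1.06 (adjusted p = 0.000727 in limma's model). The size of the fall thus depended on how low intensities were treated. Of all probes, 2.18% were called with a fall at least as large.

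CHLM catalyses the step of the chlorophyll branch that follows the insertion of magnesium. Its deposited intensity ran from 0.765 to 0.940 in PSI light (median 0.869) and from 0.463 to 0.595 with DCMU (median 0.531). These ranges did not overlap, and the mean with DCMU was 61.3% of that in PSI light. Such a separation towards lower values was common on these arrays, since 35.7% of all probes showed it in the deposited values.

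After quantile normalisation, CHLM stood at -0.37, -0.37 and -0.44 in PSI light and at -0.98, -0.63 and -0.58 with DCMU on the log2 scale. The 3 PSI light hybridisations were close together, and the DCMU hybridisation of columns 1 and 2 was the lowest. The group means were -0.39 ± 0.04 and -0.73 ± 0.22 (SD, n = 3). The 12 columns did not overlap, as was so for 25.0% of all probes in that direction. The log2 fold change was -0.34 with a 95% interval of -0.65 to -0.02, and it did not pass after adjustment over all probes in limma's model (adjusted p = 0.0801). Without DCMU columns 1 and 2 it was smaller and passed, at -0.21 (adjusted p = 0.0448). With no scaling it was -0.71 and passed (adjusted p = 0.00317), but relative to the median of all probes it was -0.39 there, against -0.28 after quantile normalisation.

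CHLP serves the last part of chlorophyll synthesis and the supply of phytyl chains. Its deposited intensity ran from 1.77 to 2.30 in PSI light (median 2.20) and from 1.74 to 2.51 with DCMU (median 1.91). The PSI light range lay inside the DCMU range, and the mean with DCMU was 96.2% of that in PSI light. On the log2 scale after quantile normalisation, CHLP stood at 1.02, 1.13 and 0.79 in PSI light and at 0.85, 1.36 and 1.10 with DCMU. In both groups the hybridisation of columns 3 and 4 was the highest. The log2 fold change was 0.13 with a 95% interval of -0.30 to 0.55 (adjusted p = 0.598 in limma's model), and the hybridisations of the groups overlapped. The direction was not settled: it was -0.062 with no scaling and -0.0060 without DCMU columns 3 and 4. Relative to the median of all probes, CHLP was 0.26 and 0.046 in these settings, against 0.18 after quantile normalisation. The interval leaves out a fall of CHLP as large as that of SIRB.

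**Figure D2:**
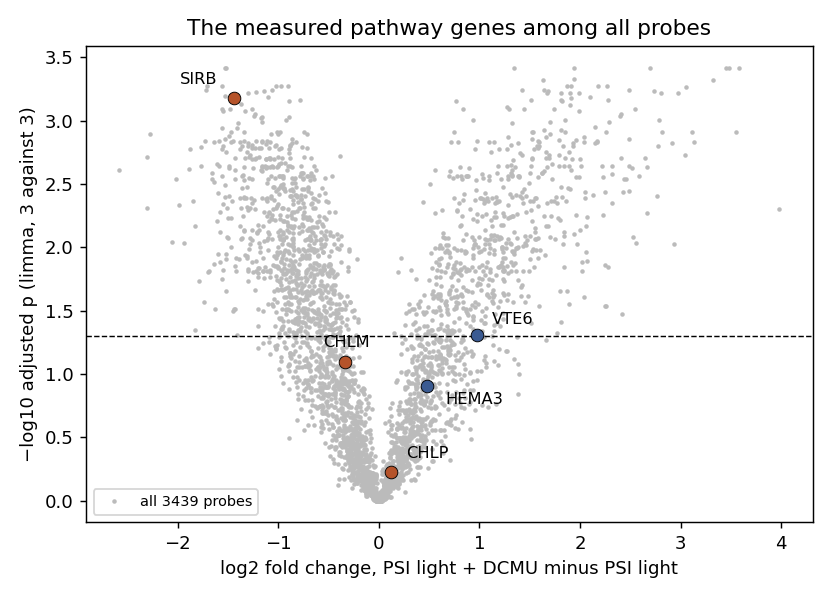
Log2 fold change (PSI light with DCMU minus PSI light) against −log10 of limma's adjusted p for all 3439 probes in grey, with the 3 genes in orange and the other measured pathway genes in blue; the dashed line is an adjusted p of 0.05. SIRB lies far above the line on the lower side, CHLM and CHLP lie below it, and VTE6 lies on it.

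A ratio of 2 probes within an array column does not change when that column is multiplied by a factor, so ratios between the 3 genes were compared on the deposited values. The size of such a ratio says nothing of relative abundance, since probes differ in brightness. A change in it shows that the 2 deposited intensities changed unequally. A constant added to a column would not cancel, and SIRB with DCMU (0.132 to 0.221) lay near the floor of 0.110. The log2 ratio of CHLP to SIRB averaged 1.85 ± 0.12 in PSI light and 3.46 ± 0.36 under DCMU (SD, n = 3), a shift of 1.61 or 3.06-fold. The lowest DCMU hybridisation, at 3.07, lay above the highest PSI light hybridisation, at 1.97. The log2 ratio of CHLM to SIRB went from 0.56 ± 0.05 to 1.52 ± 0.33, a shift of 0.97 or 1.95-fold, so SIRB was lowered relative to CHLM as well. The log2 ratio of CHLM to CHLP went from -1.29 ± 0.09 to -1.93 ± 0.14, a shift of -0.65. After the position correction that last shift was -0.29. The hybridisations of the groups did not overlap in any of the 3 ratios on the deposited values. How often ratios of other probes do so was not counted, so this is not read as particular to these genes. Of single probes, 35.7% separated the deposited columns towards lower values. The exact two-sided permutation test gave p = 0.1 for each, the smallest value that 3 against 3 allows, and p = 0.1 after Benjamini-Hochberg adjustment over the 3 ratios, so this design could not pass 0.05.

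**Figure D3:**
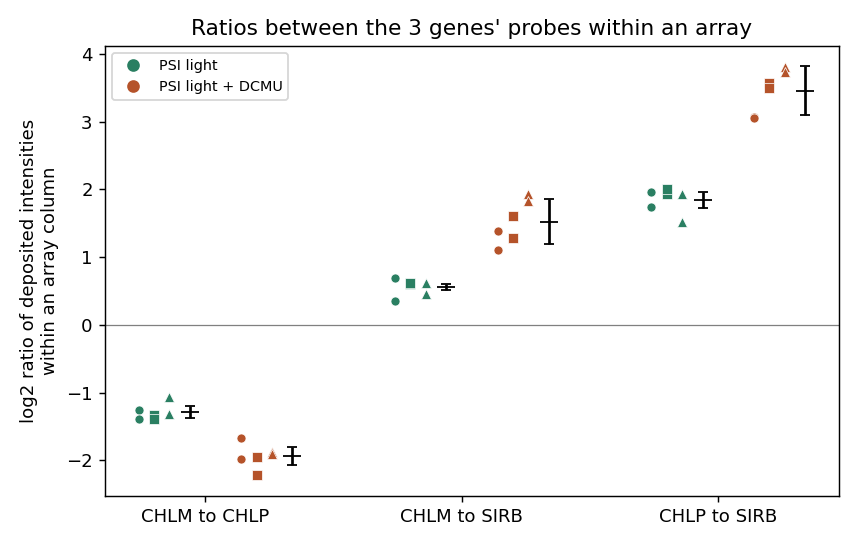
Log2 ratio of deposited intensities between the probes of 2 genes within each array column, for the 3 pairs of genes; green is PSI light and orange PSI light with DCMU, shapes mark the column pairs, and black bars give mean and SD of 3 hybridisations. The ratios CHLM to SIRB and CHLP to SIRB are higher with DCMU and the ratio CHLM to CHLP is lower.

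Over all 3439 probes, the fold change of a probe and the median of its 100 nearest neighbours in probe number had a Spearman coefficient of 0.36, so each gene was set beside these neighbours. Those of SIRB had a median log2 fold change of -0.23 (middle range -0.74 to 0.18), and 4 of the 100 had a fold change as low as that of SIRB or lower. Of these 100, 42 were called lower and 14 higher, against 25.0% and 18.1% of all probes. SIRB minus its neighbours' median was -1.21. This figure depends on the window. The probes at rank distances -2, -1, 1 and 2 stood at -0.86, -0.82, -1.56 and -0.78, all below the median of the 100. The neighbours of CHLM had a median of -0.30, and 48 of the 100 had a fold change as low as that of CHLM or lower. CHLM minus its neighbours' median was -0.04. The neighbours of CHLP had a median of -0.18, and CHLP was 0.31 above it. After subtraction of a running median over 101 probes, SIRB stood at -1.15 (adjusted p = 0.00048 in limma's model), CHLM at -0.04 (adjusted p = 0.834) and CHLP at 0.26 (adjusted p = 0.262). The cause of the likeness between neighbouring numbers was not tested.

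**Figure D4:**
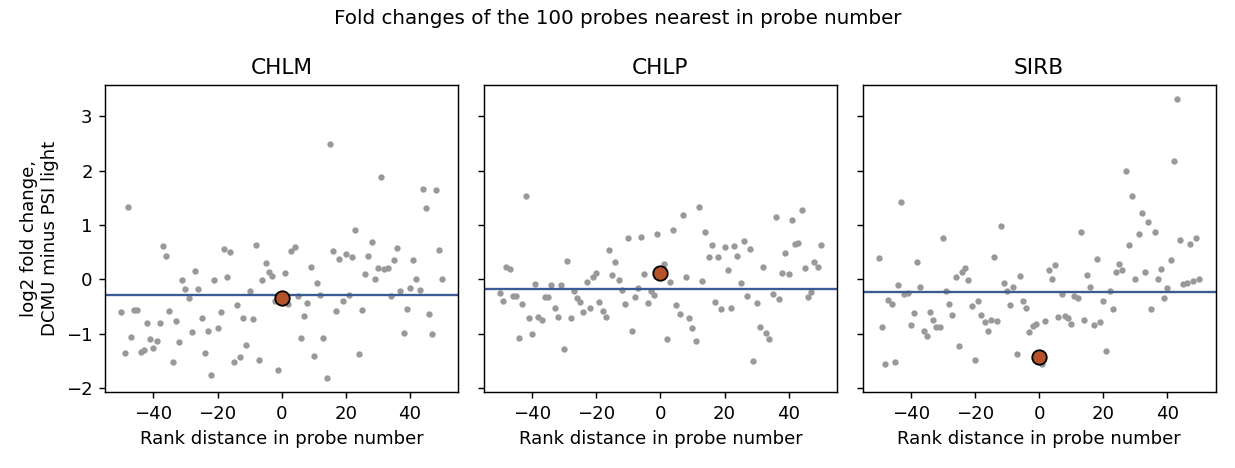
Log2 fold change (PSI light with DCMU minus PSI light) of the 100 probes nearest in probe number to each gene, by rank distance, with the gene in orange at 0 and the neighbours' median as a blue line. SIRB lies well below its neighbours' median (a difference of -1.21), and CHLM lies close to the median of its own neighbours.

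Few other genes of the pathway could be read. Of 76 genes in 5 lists (chlorophyll synthesis, siroheme, heme and bilins, chlorophyll breakdown, and phytyl supply with tocopherols), 5 had a probe of their own, the 3 genes above and 2 more. Of these 5, 1 rose, 1 fell and 3 did not pass, against 18.1% of all probes called higher and 25.0% called lower, so the count is close to that of the array as a whole. The median gene of the array moved by -0.06, and the 5 measured genes ran from -1.44 to 0.98. A further 7 genes were on 5 probes that name several genes. Of those 5 probes 1 was called higher, none was called lower and 4 did not pass in limma's model, with log2 fold changes of 0.04 to 0.63. That count is also near the share of all probes (18.1% higher, 25.0% lower). The lists for heme and bilins and for chlorophyll breakdown had no gene with a probe of its own.

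At the start of the pathway, HEMA3, for an isoform of glutamyl-tRNA reductase, stood at 0.40, -0.30 and -0.18 in PSI light and at 0.49, 0.33 and 0.55 with DCMU on the log2 scale. The PSI light hybridisation of columns 1 and 2 lay among the DCMU values. The log2 fold change was 0.48 (95% interval -0.06 to 1.02, adjusted p = 0.125 in limma's model), so it did not pass. Its size depended on the setting: in limma's model it was 0.13 with no scaling (adjusted p = 0.693) and 0.22 with equal totals (adjusted p = 0.458). Relative to the median of all probes it was 0.45 in both, against 0.54 after quantile normalisation. The fold change was 0.69 after the position correction (adjusted p = 0.0104). It was 0.70 without the PSI light hybridisation of columns 1 and 2 (adjusted p = 0.014). The mean deposited intensity of HEMA3 with DCMU was 107% of that in PSI light. VTE6, for a kinase that returns phytyl phosphate from chlorophyll breakdown to tocopherol synthesis, stood at -1.19, -1.92 and -1.37 in PSI light and at -0.55, -0.90 and -0.10 with DCMU. All 3 DCMU hybridisations were higher than those of PSI light. The share of all probes that did so was not counted, so this separation is not read as particular to VTE6. Of all probes, 18.1% were called higher. VTE6 rose 1.97-fold (log2 0.98, SE 0.29), with an adjusted p of 0.0494 in limma's model. This call was lost without any 1 of the 6 hybridisations (adjusted p = 0.0519 to 0.116) with no scaling (log2 0.64, adjusted p = 0.0914), with equal totals and with a higher floor (10th percentile). VTE6 and CHLP both serve the phytyl supply, and the value of CHLP lay nearer to 0; that difference was not tested.

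The genes whose pattern was most like each of the 3 were taken by Pearson correlation over the 6 hybridisation means, among 591 other genes with a probe of their own and no hybridisation at the floor. This measure includes the difference between groups, and the points share their normalisation. For SIRB the closest were AT1G03810 (r = 0.994), AT3G06570 (r = 0.988) and AT2G03390 (r = 0.987), and 107 genes exceeded 0.9. AT1G03810 and AT3G06570 had log2 fold changes of -1.72 and -1.49, against -0.39 for AT2G03390, so a close pattern did not mean a change of the same size. For CHLM the closest were AT5G55220 (r = 0.984), AT3G01360 (r = 0.981) and AT1G44830 (r = 0.973), and 17 genes exceeded 0.9. For CHLP they were AT5G23540 (r = 0.946), AT5G66530 (r = 0.936) and AT1G80450 (r = 0.866), and 2 exceeded 0.9. Among the 3 genes themselves, r was 0.77 for CHLM with SIRB, 0.16 for CHLM with CHLP and -0.32 for CHLP with SIRB over the same 6 points.

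**Figure D5:**
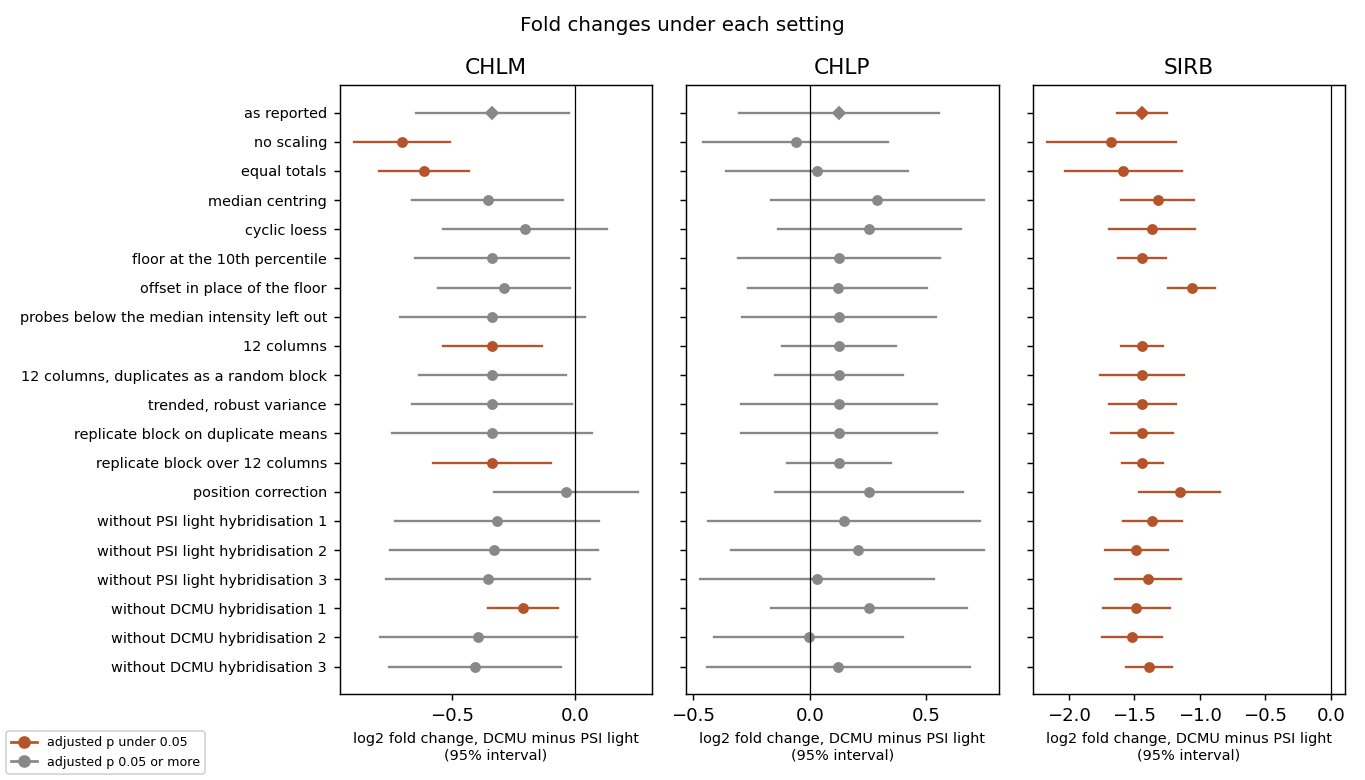
Log2 fold change with its 95% interval for CHLM, CHLP and SIRB as reported (diamond) and under 19 other settings, with orange for an adjusted p under 0.05 and grey otherwise; SIRB has no value where dim probes were left out. SIRB stays between -1.67 and -1.06 and past the threshold in 18 settings, CHLM runs from -0.71 to -0.04 and CHLP lies on both sides of 0.

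The plot of fold changes by setting shows how far each gene depends on the scaling. SIRB was past the threshold in each of the 18 other settings that kept its probe, with log2 fold changes of -1.67 to -1.06. CHLM was past it in 5 of 19, among them limma's model of 12 separate columns (adjusted p = 0.00719), which called 61.3% of all probes, and CHLP in 0 of 19, with adjusted p-values for CHLP of 0.252 to 1 in limma's models. The unadjusted p of CHLP in limma's model was 0.483.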

How the data were processed

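The authors deposited 1 table of linear intensity values for 12 columns and 3439 probes, from 0 to the brightest probe of each column. No label or header names the scanner, background correction or hybridisation protocol. Arrays have no read depth, and their number limits the precision. Columns were grouped by their titles. Intensities were quantile normalised, raised to at least the 5th percentile of positive values (0.110) and turned to log2, and the column pairs were averaged. limma 3.58.1 in R 4.3.3 compared DCMU with PSI light over all probes, and p-values were adjusted by Benjamini-Hochberg, with 0.05 as threshold. The script was tested on simulated data. Probes were named by the platform's table, updated by gene identifier with RefSeq (TAIR10.1). Of the probes, 692 had 1 gene, 870 had more and 1877 are unnamed here. CHLP and VTE6 carry only their locus there, and these names are from the lists. No build is named, so no coordinates are given, and no sequences were used here. The genes named were the 3 members, list genes with a probe of their own, and the 3 most correlated genes of each member. Members, lists and the averaging of columns were chosen with earlier results of these data known. The deviations of same-numbered hybridisations of both groups correlated at 0.0989 to 0.306. No label says that a number is shared between groups, so numbers were not taken to pair samples. Alternatives were other scalings, floors, filters, variance models, blocks, a position correction and the loss of each hybridisation. Figures used Python 3.11.15 and matplotlib 3.10.9.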

Additional observations from a re-analysis of the deposited data

Results flagged for a closer look

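Each column was set against the other 5 of its group for the 5 measured pathway genes, the 9 most correlated genes and the 3 ratios, which made 34 groups of 6 columns. No column stood apart in any of these 34 groups. Columns come in close pairs here, so this measure can overlook a hybridisation that differs in both columns.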

How the results depend on the processing

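SIRB kept its direction and its call in all 18 alternatives that gave it a value; its probe was dropped where probes below the median intensity were left out. CHLM passed with no scaling (-0.71), with equal totals (-0.62), over 12 columns (-0.34) and over 12 columns with the replicate block (-0.34, adjusted p = 0.0243 in limma's model); without 1 hybridisation it ran from -0.41 to -0.21. The all-probe median was -0.32 with no scaling and -0.23 with equal totals, and relative to it CHLM was -0.39 in both. The fits over 12 columns counted duplicate columns as samples. Why CHLM passed in these settings was not tested. With the replicate block on hybridisations CHLM was -0.34 (adjusted p = 0.13), and the block changed no call of the 3 genes there. Each of the 6 hybridisations had its highest correlation with the same number in the other group, which no label explains. CHLP turned to -0.062 with no scaling, where it was 0.26 relative to the all-probe median. Without 1 hybridisation CHLP ran from -0.0060 to 0.25. The cause was not tested. Of the 5 measured pathway genes, 2 passed (1 higher, 1 lower) where 43.1% of all probes did. The count stayed at 2 but became 0 higher and 2 lower with no scaling (46.4% of all probes) and equal totals (44.5%). It was 3 after the position correction (46.7%) and with duplicates as a random block (51.0%), 4 over 12 columns without the block (61.3%) or with it (64.7%), 1 with the higher floor (41.4%), 0 of 3 with dim probes left out (48.2%), and 1 to 2 without 1 hybridisation. Of all probes 1483 passed, and 829 with dim probes left out; without 1 hybridisation 1151 to 1290 passed. Over 12 columns, which are not independent, the exact permutation test gave p = 0.00216 for the ratios CHLM to CHLP (-0.65), CHLM to SIRB (0.97) and CHLP to SIRB (1.61); without 1 hybridisation they ran from -0.70 to -0.57, 0.79 to 1.11 and 1.46 to 1.81. Signal near the floor, where 292 probes per column stood, limits what dim probes can show.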
